A study of Cricetiscus sungorus with 12 samples.

Results

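The hypothalamic arm of the growth hormone axis was followed in Djungarian hamsters through 10 genes, chosen by their mouse GeneIDs among the 17191 GeneIDs of the tables. They are the neuropeptide somatostatin (Sst), its receptors Sstr1 (GeneID 20605), Sstr2 (20606), Sstr3 (20607), Sstr4 (20608) and Sstr5, growth hormone-releasing hormone (Ghrh), the ghrelin receptor (Ghsr), the growth hormone receptor (Ghr) and insulin-like growth factor 1 (Igf1, 16000). All 10 were present and all 10 passed the filter on low counts in each comparison. The tables carry GeneIDs without names, so the names are those given with the rule for choosing the genes.

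Somatostatin and growth hormone-releasing hormone are released by hypothalamic neurons towards the pituitary, where somatostatin lowers and growth hormone-releasing hormone raises the secretion of growth hormone. Ghrelin acts through Ghsr to promote growth hormone release, and growth hormone and IGF-1 feed back on the hypothalamus, where Ghr is expressed. The somatostatin receptors are inhibitory G protein-coupled receptors found on neurons in many brain regions. In this seasonal species short photoperiod brings loss of body mass and spontaneous daily torpor.

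Hypothalamic mRNA was sequenced from 12 adult Phodopus sungorus of an outbred colony, each library from a different hamster. The LP-NT group (n = 4, 2 males and 2 females) was kept under 16 h of light and 8 h of darkness and was normothermic. The SP-NT group (n = 4, 2 males and 2 females) and the SP-HT group (n = 4, 3 males and 1 female) were adapted to 8 h of light and 16 h of darkness, and were sampled on a day without torpor or during torpor. All were sampled at about ZT 4, that is 4 h after lights on. The tissue was a block trimmed by hand that held the whole hypothalamus, so values are averages over all its nuclei. The short photoperiod hamsters carried implanted temperature transmitters and the LP-NT hamsters did not, so photoperiod and implantation cannot be told apart. Library depth, as the total of expected counts, ran from 20204979 to 24186918, and the group medians were 22089202 (LP-NT), 23941442 (SP-NT) and 21832555 (SP-HT).

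SP-NT replicate 19 went against its label. It was labelled male, but 3 GeneIDs that had at least 100 counts in the other 6 males and at most 5 counts in the 5 females had at most 1 count in it. The main edgeR fits, those with sex as a covariate, the receptor shares and the ratio of Sst to Ghrh were therefore also computed without this hamster. The other tools and settings, the correlations, the overlaps of groups and the order of levels were not. The sample labels and the study's body temperature records name the same hamsters as torpid, and directions follow them. The study's written account gives the comparison of SP-HT with SP-NT, but not that of SP-NT with LP-NT, the opposite sign. For SP-NT against LP-NT, DESeq2 with effective lengths called 15 GeneIDs higher and 17 lower, as in that account. For SP-HT against SP-NT it called 303 higher and 456 lower, where that account has the same counts with the directions exchanged. The cause was not tested. Without gene names, neither torpor nor the tissue could be checked by marker genes in the libraries, so SP-HT and SP-NT mean the samples so labelled throughout.

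Normalised counts (CPM) are counts scaled to library size with TMM factors, and serve to compare samples for a single gene. Levels of different genes are compared in TPM, a deposited unit that also takes transcript length into account. A gene was called where the adjusted p of edgeR's quasi-likelihood test was below 0.05, with Benjamini-Hochberg adjustment over all GeneIDs tested. In these bulk samples, fewer cells of a type and less RNA per cell cannot be told apart.

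Sst was by far the most abundant of the 10 genes, at 216 ± 19.4 TPM (SD, n = 12). Its mean lay above that of 95.9% of all GeneIDs. The next level was held by Sstr3 at 19.1 ± 2.08 TPM, Ghr at 18.0 ± 2.57 TPM and Sstr1 at 16.9 ± 3.20 TPM (SD, n = 12 each), near the median of all GeneIDs, 18.5 TPM. The ranges of these 3 genes overlapped, and Sstr3 was above Ghr in 7 of 12 samples. Their order changed with the group. Sstr1, Sstr3 and Ghr averaged 20.1, 19.7 and 19.6 TPM in LP-NT and 13.3, 17.4 and 15.3 TPM in SP-HT. Sstr2 followed at 10.5 ± 1.43 TPM and was below Sstr1 in all 12 samples. Ghrh at 6.36 ± 3.38 TPM and Igf1 at 5.82 ± 0.762 TPM (SD, n = 12 each) did not differ beyond their spread, with Ghrh above Igf1 in 6 of 12 samples. The lowest levels were those of Sstr4 at 3.95 ± 0.837 TPM, Ghsr at 2.66 ± 0.498 TPM and Sstr5 at 2.04 ± 0.475 TPM (SD, n = 12 each), with overlapping ranges between neighbours in this order. This order is that of means over all 12 samples. In SP-NT replicates 19, 37 and 38, Ghrh was below Sstr4, at 2.72, 2.40 and 1.37 TPM against 5.04, 4.43 and 4.95 TPM.

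**Figure D1:**
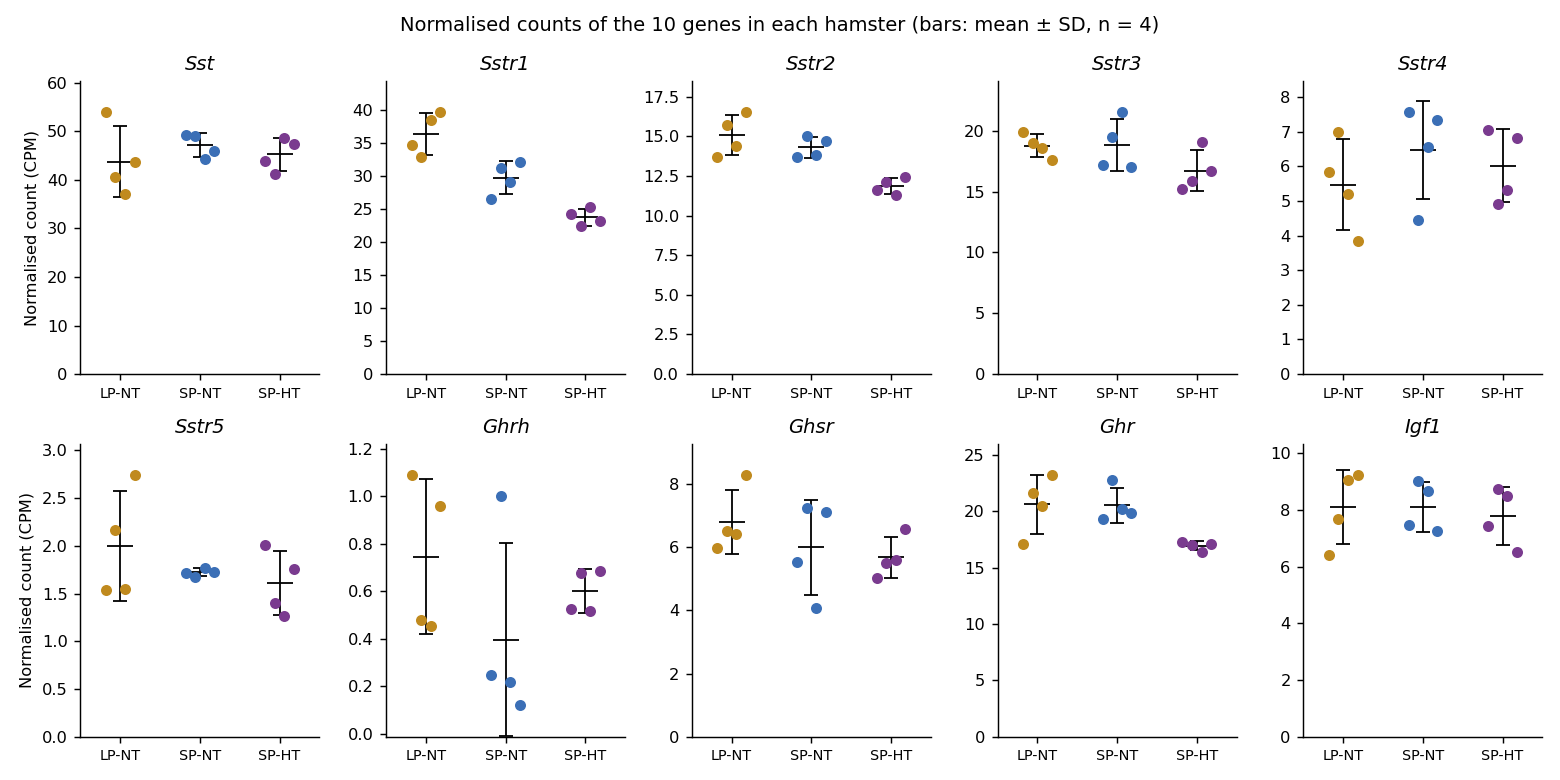
Normalised counts (CPM, vertical axes, each gene on its own scale) of the 10 genes in LP-NT, SP-NT and SP-HT. Points are single hamsters and bars show mean ± SD (n = 4); Sstr1 forms 3 separate steps, Sstr2 is low in all 4 SP-HT samples, and Sst overlaps between the groups.

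The comparison of SP-HT with LP-NT spans, by the labels, photoperiod and torpor together, and it was here that Sstr1 was called. Sstr1 in LP-NT was at 34.8, 32.9, 38.6 and 39.7 CPM in replicates 01, 02, 03 and 05. In SP-NT it was at 26.6, 31.3, 29.2 and 32.2 CPM in replicates 19, 36, 37 and 38. In SP-HT it was at 24.3, 22.4, 25.3 and 23.2 CPM in replicates 02, 10, 26 and 33. The 3 groups thus formed steps without overlap, although LP-NT replicate 02 and SP-NT replicate 38 lay close to each other. On the TPM scale SP-HT remained apart from both other groups, at 12.3 to 13.8 TPM, while LP-NT at 18.0 to 21.8 TPM and SP-NT at 15.5 to 19.0 TPM overlapped.

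Sstr1 fell from 36.5 ± 3.17 CPM in LP-NT to 23.8 ± 1.27 CPM in the samples labelled SP-HT (SD, n = 4 each), a log2 fold change of -0.61 (standard error 0.084, adjusted p = 0.0102 in edgeR) that was shown by 4 of 4 SP-HT samples. It ranked 28 by p among the 16157 GeneIDs tested. The call held with each of the 8 hamsters left out in turn, at adjusted p between 0.0101 and 0.0479 in edgeR. Of the 10 genes 1 was called, where 1.37% of all GeneIDs tested were called. DESeq2 called 2 genes, Sstr1 and Sstr2, beside 4.37% of GeneIDs, and limma voom with sample quality weights called 1 gene, Sstr1, beside 2.57%. At an unadjusted p below 0.05 in edgeR there were 3 genes, Sstr1, Sstr2 and Ghr, beside 15.1% of GeneIDs. In 2 genes, Sstr1 and Sstr2, the groups did not overlap, where 6.83% of GeneIDs were lower in SP-HT without overlap and 3.81% higher.

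The step between SP-NT and LP-NT concerns photoperiod in normothermic hamsters. Sstr1 averaged 29.8 ± 2.48 CPM in SP-NT (SD, n = 4), and its log2 fold change against LP-NT was -0.29 (standard error 0.087), with 4 of 4 SP-NT samples below every LP-NT sample. This was not called (unadjusted p = 0.00683, adjusted p = 0.913 in edgeR), and without SP-NT replicate 19 the log2 fold change was -0.24 (adjusted p = 0.917 in edgeR). None of the 10 genes was called by edgeR, which called 0.0370% of GeneIDs, by DESeq2, which called 0.204%, or by limma voom with sample quality weights, which called 0.0432%. Sstr1 was the only gene of the 10 at an unadjusted p below 0.05 in edgeR, beside 4.84% of GeneIDs. It was also the only one that did not overlap between the groups, where 1.72% of GeneIDs were lower in SP-NT without overlap and 1.72% higher.

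The comparison of SP-HT with SP-NT addresses torpor within short photoperiod, with its sign taken from the labels. The mix of labelled sexes differs between these groups, and the counts of SP-NT replicate 19 went against its male label. Torpor and sex are therefore partly mixed here. The study's written account gives Sstr1 as higher in torpor, the opposite sign to that found here. Sstr1, Sstr2 and Ghr each had lower values in all 4 samples labelled SP-HT than in any SP-NT sample, where 7.39% of GeneIDs were lower without overlap and 4.74% higher. edgeR called none of the 10 genes, beside 2.40% of GeneIDs. At an unadjusted p below 0.05 it gave these 3 genes, beside 18.4% of GeneIDs. DESeq2 called Sstr1 and Ghr, 2 of the 9 genes to which it gave an adjusted p (it gave none for Ghrh), beside 6.28%, and limma voom with sample quality weights called 0 of them, beside 2.57%. The comparison thus lies at the threshold and its calls change with the tool.

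For Sstr1 the log2 fold change of the samples labelled SP-HT over those labelled SP-NT was -0.33 (standard error 0.077, adjusted p = 0.0540 in edgeR). The adjusted p was 0.00999 in DESeq2, 0.0126 in DESeq2 with effective lengths and 0.0499 in edgeR with the filter filterByExpr, and over the alternative settings, without those that leave out 1 hamster in turn, it lay between 0.00999 and 0.105. Without SP-NT replicate 19 the log2 fold change was -0.37 (adjusted p = 0.0518 in edgeR). With each hamster left out it ranged from -0.37 to -0.28, at adjusted p between 0.0518 and 0.145 in edgeR. The 3 comparisons share groups of samples, so the values of Sstr1 in them are not independent of each other.

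**Figure D2:**
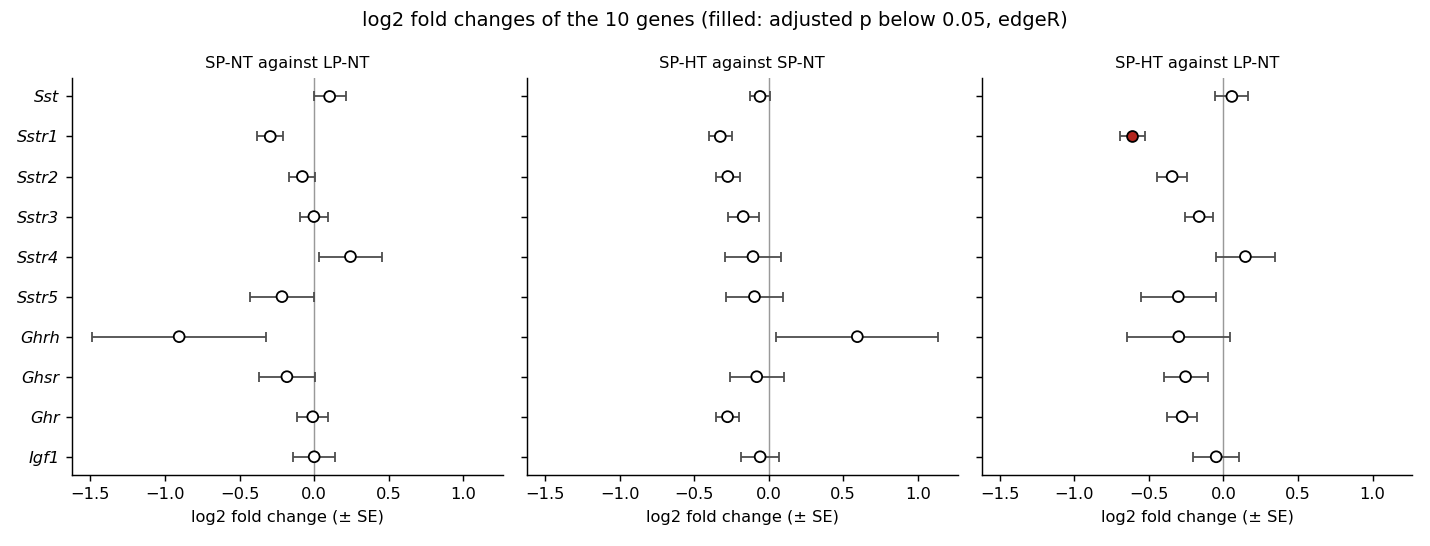
Log2 fold changes (horizontal axes) of the 10 genes in the 3 comparisons, with bars of 1 standard error from edgeR. The filled point, Sstr1 in SP-HT against LP-NT at -0.61, is the only one with an adjusted p below 0.05; Ghrh has the widest bars.

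Sstr2, a receptor that is common in the brain and in the pituitary, had a different course. It was at 13.7, 15.7, 14.4 and 16.5 CPM in LP-NT replicates 01, 02, 03 and 05, and at 13.7, 15.0, 13.8 and 14.7 CPM in SP-NT replicates 19, 36, 37 and 38. In SP-HT replicates 02, 10, 26 and 33 it was at 11.6, 12.1, 11.3 and 12.4 CPM. The normothermic groups overlapped throughout, and all 4 SP-HT samples lay below all 8 normothermic samples. The log2 fold change was -0.27 in SP-HT against SP-NT (standard error 0.079, adjusted p = 0.0961 in edgeR) and -0.34 in SP-HT against LP-NT (standard error 0.098, adjusted p = 0.125 in edgeR). The second of these was called by DESeq2 (adjusted p = 0.0487) and by edgeR with all 12 samples in a single fit (adjusted p = 0.0393), with a range from 0.0393 to 0.160 over the alternative settings of this kind. Between SP-NT and LP-NT the log2 fold change was -0.078 (adjusted p = 0.929 in edgeR), and from -0.12 to -0.031 with each hamster left out.

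Ghr, through which growth hormone acts on its target cells, resembled Sstr2. Its values were 17.1, 21.6, 20.5 and 23.2 CPM in LP-NT replicates 01, 02, 03 and 05 and 19.3, 22.8, 20.2 and 19.8 CPM in SP-NT replicates 19, 36, 37 and 38. In SP-HT replicates 02, 10, 26 and 33 they were 17.3, 17.0, 16.4 and 17.1 CPM. The SP-HT samples were close together and below every SP-NT sample, while LP-NT replicate 01 lay among them. The log2 fold change was -0.28 in SP-HT against SP-NT (standard error 0.074, adjusted p = 0.0796 in edgeR, and 0.0425 in DESeq2, with a range from 0.0425 to 0.263 over the alternative settings of this kind). Against LP-NT it was also -0.28 (adjusted p = 0.229 in edgeR), and -0.36 without LP-NT replicate 01 (adjusted p = 0.0611 in edgeR). Without LP-NT replicate 05 it was -0.21 (adjusted p = 0.363 in edgeR), the other end of the range with a hamster left out. Between the normothermic groups it was -0.0088 (adjusted p = 0.986 in edgeR). Without SP-NT replicate 19, the values of SP-HT against SP-NT were -0.30 for Ghr (adjusted p = 0.114 in edgeR) and -0.29 for Sstr2 (adjusted p = 0.158 in edgeR).

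The course of Sstr2 and Ghr was alike over the 12 samples. The Pearson correlation of their log2 CPM was 0.913 and Spearman's rho 0.930 (n = 12), which placed Ghr at rank 15 by Pearson's r among 13939 GeneIDs with a mean of at least 1 CPM. After the mean of each group was taken away the correlation was 0.842, and without the 2 samples farthest from the median of Sstr2 it was 0.862. For Sstr1 and Sstr2 the correlation was 0.836 over the 12 samples and 0.230 within the groups, so that this pair went together mainly between groups. Sstr2 and Ghr were singled out as a pair after their values were seen. These correlations are descriptions, since the samples share their groups, and the genes of a sample share its depth and its dissection.

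**Figure D3:**
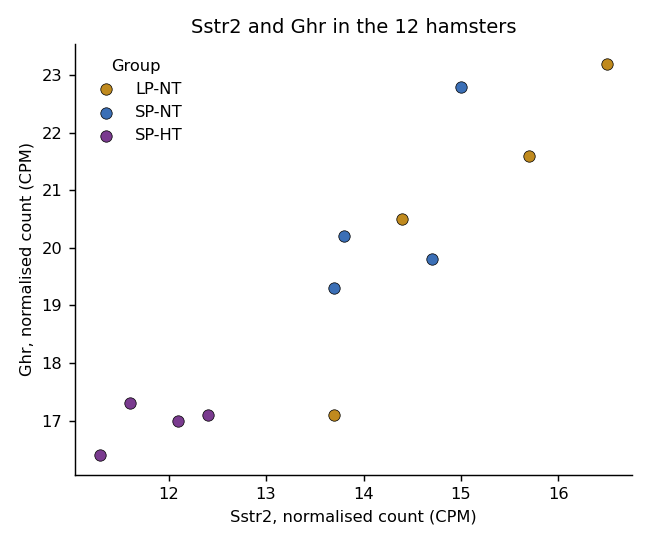
Normalised counts of Sstr2 (horizontal axis, CPM) against Ghr (vertical axis, CPM), 1 point per hamster, coloured by group. The 4 SP-HT samples sit at the low end of both axes, and LP-NT replicate 01 at 13.7 and 17.1 CPM lies below the other normothermic samples for Ghr.

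Other receptors showed no step of this kind. Sstr3, a receptor known from neuronal cilia, was at 15.2, 15.9, 19.1 and 16.7 CPM in SP-HT replicates 02, 10, 26 and 33, against 17.6 to 19.9 CPM in LP-NT and 17.0 to 21.5 CPM in SP-NT. Of the SP-HT samples 3 lay below all normothermic samples and replicate 26 lay among them (log2 fold change -0.17 against SP-NT, adjusted p = 0.405 in edgeR). Its log2 fold change between SP-NT and LP-NT was -0.0011 and changed sign with the scaling, being 8.6e-05 with median-of-ratios size factors. Sstr5 had between 27 and 60 counts per sample, and its groups overlapped in each comparison. In SP-NT it was at 1.72 ± 0.0436 CPM (SD, n = 4), a narrow spread beside 2.00 ± 0.576 CPM in LP-NT and 1.61 ± 0.340 CPM in SP-HT (SD, n = 4 each).

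Sstr1 and Sstr4 cannot be fully told apart in these counts. Their transcripts came from a single cluster of the de novo assembly. The expected counts of each lay within 0.1 of a whole number in 2 of 12 samples, but the sum of both did so in 11 of 12 samples. This is the pattern that a division of shared reads between the pair by RSEM would leave. How many reads were shared was not looked at. The tolerance of 0.1 was chosen after the values were seen. Sstr4 alone was at 5.46 ± 1.31 CPM in LP-NT, 6.48 ± 1.42 CPM in SP-NT and 6.02 ± 1.06 CPM in SP-HT (SD, n = 4 each), with overlap in each comparison. Its part of the summed counts averaged 13.1 ± 3.67% (LP-NT), 17.9 ± 4.02% (SP-NT) and 20.1 ± 2.83% (SP-HT; SD, n = 4 each).

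With the counts of both receptors summed, a step chosen after seeing the data, the sum was 39.9 to 43.8 CPM in LP-NT, 34.1 to 39.5 CPM in SP-NT and 27.3 to 31.3 CPM in SP-HT. On this scale the 3 groups still did not overlap, although SP-NT replicate 38 and LP-NT replicate 02 lay close, at 39.5 and 39.9 CPM. In TPM, SP-NT replicate 38 was above LP-NT replicate 01 for Sstr1 (19.0 against 18.0) and for Sstr4 (4.95 against 3.67). The LP-NT and SP-NT groups thus overlapped for the pair in TPM. The log2 fold change of the sum was -0.49 in SP-HT against LP-NT (adjusted p = 0.0144 in edgeR), -0.28 in SP-HT against SP-NT (adjusted p = 0.0640 in edgeR) and -0.21 in SP-NT against LP-NT (adjusted p = 0.913 in edgeR). SP-HT against LP-NT was thus called for the pair as a whole too. Sstr3 and Sstr5 also shared a gene of the assembly, but Sstr5 was within 0.1 of a whole number in 12 of 12 samples and Sstr3 in 9 of 12.

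**Figure D4:**
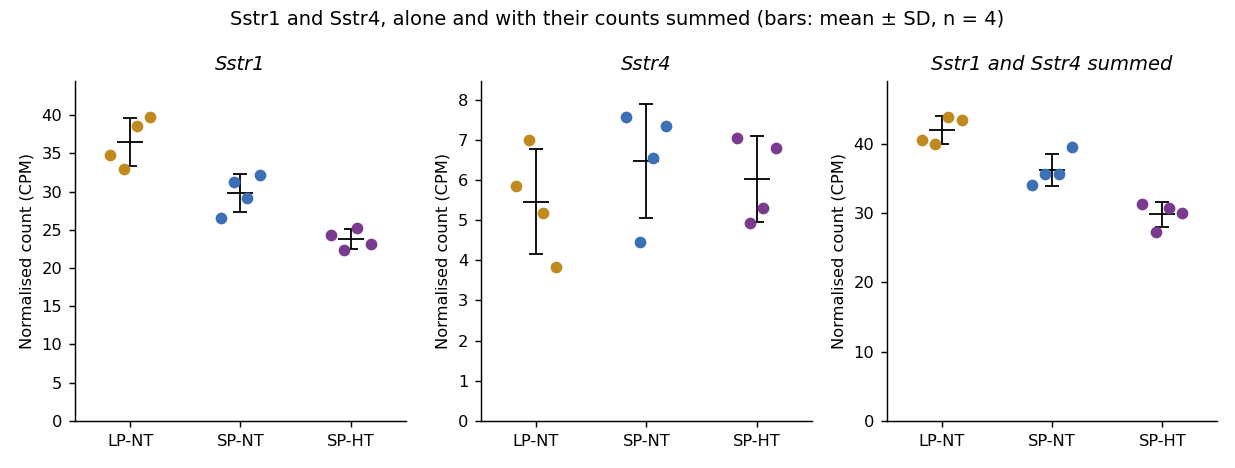
Normalised counts (vertical axes, CPM) of Sstr1, of Sstr4 and of both with their counts summed, by group; points are hamsters and bars show mean ± SD (n = 4). On the CPM scale the summed counts keep the 3 steps of Sstr1, from 39.9 to 43.8 CPM in LP-NT down to 27.3 to 31.3 CPM in SP-HT.

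The receptors together amounted to 57.2 ± 2.89 TPM in LP-NT, 54.9 ± 2.70 TPM in SP-NT and 45.3 ± 2.13 TPM in SP-HT (SD, n = 4 each). The samples labelled SP-HT, at 42.5 to 47.3 TPM, were below all samples labelled normothermic, at 51.4 to 59.5 TPM. In the order LP-NT, SP-NT, SP-HT, the share of Sstr1 in the receptor TPM averaged 35.1 ± 2.04%, 31.5 ± 2.69% and 29.3 ± 0.637%, and that of Sstr3 34.6 ± 2.11%, 36.6 ± 3.46% and 38.5 ± 3.15% (SD, n = 4 each). The receptor with the largest mean share was thus Sstr1 in LP-NT, by less than the spread, and Sstr3 in SP-NT and SP-HT. In SP-NT replicate 38, however, Sstr1 (34.0%) was above Sstr3 (32.9%). The order in SP-NT, and in SP-HT replicate 02, also rests on how counts were divided between Sstr1 and Sstr4. The share of Sstr4 averaged 7.95% in SP-NT and 8.62% in SP-HT. In SP-HT replicate 02 the shares of Sstr1, Sstr4 and Sstr3 were 30.1%, 10.2% and 34.8%. On the CPM scale, which does not correct for length, Sstr1 held the largest share in each group, at 46.9%, 41.9% and 39.7%. The share of Sstr2 overlapped between the groups, at 18.7 to 21.5% in LP-NT, 19.1 to 21.0% in SP-NT and 17.6 to 21.0% in SP-HT. These shares are a description and were not tested.

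**Figure D5:**
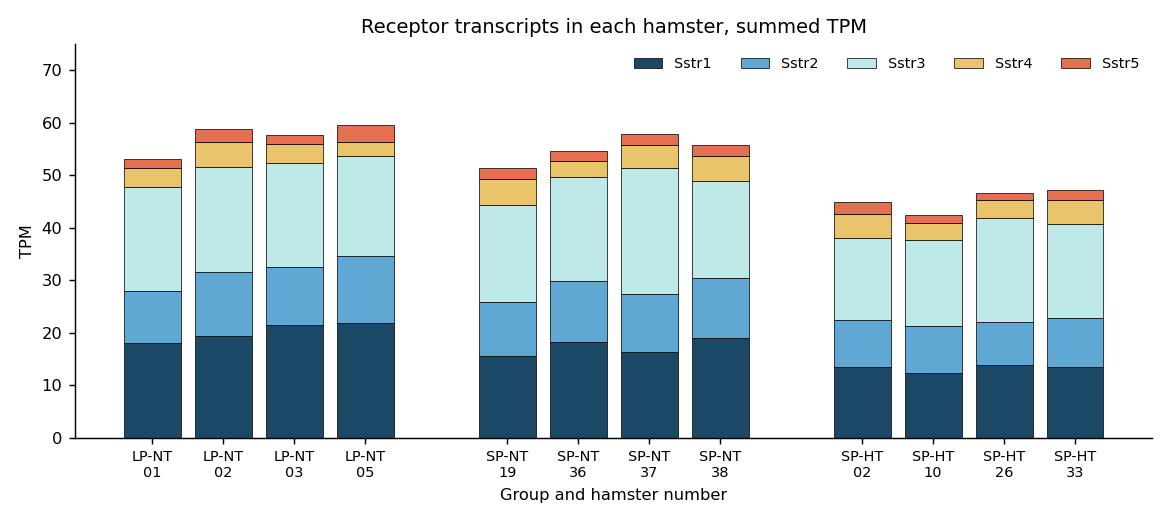
Summed TPM of the receptors (vertical axis) in each hamster (horizontal axis, group and replicate number), with each receptor as a segment of the bar. The bars of SP-HT end between 42.5 and 47.3 TPM, those of the other groups between 51.4 and 59.5 TPM.

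The ligand Sst did not show the steps of Sstr1. It was at 43.8 ± 7.28 CPM in LP-NT, 47.1 ± 2.41 CPM in SP-NT and 45.3 ± 3.42 CPM in SP-HT (SD, n = 4 each). Its groups overlapped in each comparison, with log2 fold changes of 0.10 for SP-NT against LP-NT (standard error 0.11), -0.058 for SP-HT against SP-NT (standard error 0.068) and 0.057 for SP-HT against LP-NT (standard error 0.11). In edgeR their adjusted p-values were 0.920, 0.697 and 0.858. The highest value of all, 53.9 CPM, was that of LP-NT replicate 01. Without it the log2 fold change was 0.22 for SP-NT against LP-NT (adjusted p = 0.996 in edgeR) and 0.17 for SP-HT against LP-NT (adjusted p = 0.369 in edgeR). In limma voom with sample quality weights, the former was 0.21 (adjusted p = 0.817).

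Ghrh was at the limit of what this depth resolves, with 3 to 24 counts per sample. In LP-NT replicates 01, 02, 03 and 05 there were 24, 11, 10 and 21 counts, and in SP-HT replicates 02, 10, 26 and 33 there were 12, 14, 11 and 14 counts. In SP-NT replicates 19, 36, 37 and 38 there were 6, 24, 5 and 3 counts. Of the SP-NT samples 3 were thus below all samples of both other groups, and replicate 36 had as many counts as the highest LP-NT sample. The log2 fold change of SP-NT against LP-NT was -0.90 (standard error 0.59, adjusted p = 0.913 in edgeR), and -1.91 without SP-NT replicate 36 (adjusted p = 0.941 in edgeR). For SP-HT against SP-NT it was 0.59 (standard error 0.54, adjusted p = 0.604 in edgeR), and 1.60 without SP-NT replicate 36 (adjusted p = 0.0890 in edgeR). With each hamster left out, the former comparison ranged from -1.91 to -0.60 and the latter from 0.29 to 1.60. Without SP-NT replicate 19 these were -0.73 and 0.43.

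Sst and Ghrh act in opposite directions on growth hormone release. The log2 ratio of Sst to Ghrh counts averaged 5.97 ± 0.47 (LP-NT), 7.38 ± 1.25 (SP-NT) and 6.25 ± 0.28 (SP-HT; SD, n = 4 each). In SP-NT it was 7.64, 5.61, 7.68 and 8.57 in replicates 19, 36, 37 and 38, where the lowest value is that of the hamster with 24 Ghrh counts. The ratio followed Ghrh, since Sst varied little, and it was not tested. It takes no account of transcript length (median effective length 576.6 for Sst and 251.9 for Ghrh). It therefore serves to compare samples, not the levels of Sst and Ghrh.

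Ghsr and Igf1 overlapped between the groups in each comparison and were not called. Ghsr, the receptor of ghrelin, spanned 5.97 to 8.27 CPM in LP-NT, 4.06 to 7.24 CPM in SP-NT and 5.03 to 6.57 CPM in SP-HT, with 94 to 181 counts per sample. Igf1, which in the brain is made locally as well as reaching it with the blood, was at 8.10 ± 1.31, 8.11 ± 0.875 and 7.80 ± 1.02 CPM in the same order (SD, n = 4 each). Its log2 fold changes lay close to 0 in the 3 comparisons, at 0.00074 with photoperiod, -0.058 from SP-NT to SP-HT and -0.048 from LP-NT to SP-HT.

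Read as a list, 9 of the 10 genes had a negative log2 fold change in SP-HT against SP-NT, with a median of -0.10, beside 50.6% of GeneIDs tested and a median of -0.0027. For SP-HT against LP-NT these were 8 of 10 genes and a median of -0.27, beside 50.2% and -0.00086. For SP-NT against LP-NT they were 7 of 10 genes and -0.044, beside 50.8% and -0.0024. In SP-HT against SP-NT the exception was Ghrh, and in the other comparisons Sst and Sstr4 were positive, with Igf1 at 0.00074 for SP-NT against LP-NT. None of these 3 counts is fixed, since values near 0 changed sign with the setting or with a hamster left out, and so did Ghrh for SP-HT against LP-NT.

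Among GeneIDs with a mean of at least 1 CPM, the record most like Sstr1 over the 12 samples was GeneID 15551 (Pearson's r = 0.954, Spearman's rho = 0.972, n = 12), with means of 13.6 CPM in LP-NT, 11.8 CPM in SP-NT and 10.3 CPM in SP-HT. The record most like Sstr2 was GeneID 93690 (r = 0.968, rho = 0.944, n = 12), with means of 5.60, 5.05 and 3.70 CPM in that order. Without the 2 samples farthest from the median of the receptor, r was 0.930 for the first pair and 0.943 for the second. For Sst and Ghrh it was GeneIDs 67106 (r = 0.890, rho = 0.867, n = 12) and 53860 (r = 0.886, rho = 0.846, n = 12), where r was 0.732 and 0.807 without the 2 farthest samples. Of the other axis genes, the closest to Sst was Sstr3 at rank 4721, the closest to Ghrh was Ghsr at rank 2053, and the closest to Sstr1 was Sstr2 at rank 78. The files do not pair these GeneIDs with names.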

How the data were processed

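The authors pooled the trimmed read pairs of all 12 samples (Trim Galore 0.6.6) into a de novo assembly, retained those transcripts that matched mouse proteins, merged them per mouse GeneID, mapped each sample back (Bowtie 1.3.0) and quantified it with RSEM 1.3.1, per the study's methods and processing notes. The authors deposited expected counts, TPM and effective lengths per GeneID. A GeneID can join isoforms and hamster paralogs.

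Here expected counts were rounded, GeneIDs with fewer than 10 counts in total over a comparison's 8 samples were dropped, and groups were compared in pairs with edgeR 4.0.16 (quasi-likelihood test, TMM, no covariate, Benjamini-Hochberg over all GeneIDs tested) in R 4.3.3. The standard error is the size of the log2 fold change divided by the root of F. The fits were tested on simulated data with planted changes larger than those found for Sstr1, Sstr2 and Ghr, in GeneIDs with more counts than Ghrh. That test thus did not cover changes as small as these or counts as low as those of Ghrh. Alternatives were DESeq2 1.42.0, limma 3.58.1, effective lengths, other size factors and filters, a single fit, sex as a covariate, each hamster left out, and Sstr1 and Sstr4 summed. Likeness used log2 CPM with a prior count of 2. The GeneIDs were 20604 (Sst), 20605 to 20609 (Sstr1 to Sstr5), 14601 (Ghrh), 208188 (Ghsr), 14600 (Ghr) and 16000 (Igf1). All 10 are named, as is the closest record to Sst, Sstr1, Sstr2 and Ghrh, fewer than the rule's 3 since the files pair no names. The genes and lists were chosen with earlier results of these data known. Lists of further axis genes and marker genes were not analysed here, since the files do not pair GeneIDs with names.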

Additional observations from a re-analysis of the deposited data

Results flagged for a closer look

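In SP-NT, Ghrh was at 0.999 CPM in replicate 36, far from the other 3 hamsters of the group, which lay between 0.121 and 0.246 CPM. The gap to the nearest of them was 0.857 of the range of the group, above Dixon's critical value for 4 samples. It was the only such sample among 30 groups of 4 values looked at, and chance alone gives about 1 in 20 groups. The value rests on 24 counts, and its cause was not tested.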

How the results depend on the processing

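No call of the 10 genes changed with a hamster left out: the number called was 0 for SP-NT against LP-NT, 0 for SP-HT against SP-NT and 1 for SP-HT against LP-NT in each case. For SP-HT against SP-NT, where edgeR called 0, DESeq2 called 2 genes, DESeq2 with effective lengths 1 and edgeR with filterByExpr 1. For SP-HT against LP-NT, where edgeR called 1, DESeq2 and edgeR with all 12 samples in a single fit each called 2. The cause was not tested.

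Small log2 fold changes that were not called changed sign. For SP-NT against LP-NT, Sstr3 (-0.0011) was 0.010 in limma voom with sample quality weights, 8.6e-05 with median-of-ratios size factors, 0.00064 with no count filter, 0.0014 with filterByExpr, 0.0089 in a single fit of all 12 samples and 0.028 with sex as a covariate and SP-NT replicate 19 left out. Igf1 (0.00074) was -0.039 in limma voom and -0.0027 with sex as a covariate. This covariate was the labelled sex, which the counts of SP-NT replicate 19 went against. For SP-HT against LP-NT, Ghrh (-0.30) was 0.066 in limma voom. With each hamster left out, the log2 fold change for SP-NT against LP-NT ranged from -0.069 to 0.044 for Sstr3, from -0.088 to 0.054 for Ghr and from -0.095 to 0.070 for Igf1. For SP-HT against SP-NT it ranged from -0.22 to 0.0030 for Sstr5, from -0.22 to 0.023 for Ghsr and from -0.11 to 0.021 for Igf1. For SP-HT against LP-NT it ranged from -0.014 to 0.17 for Sst and from -0.15 to 0.027 for Igf1. Sst kept its sign for SP-NT against LP-NT but moved from 0.036 to 0.22 in the same way. Its value for SP-HT against SP-NT ranged from -0.095 to -0.014.

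Receptor shares depend on the scale: by CPM, Sstr1 held 46.9%, 41.9% and 39.7% in LP-NT, SP-NT and SP-HT. Ghrh and Sstr5 are limited by their low counts. The wider gene lists were not run. No paired analysis was possible because the groups share at most 1 replicate number and the hamsters are separate animals.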
